A study of Homo sapiens with 16 samples.

Results

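The positions described here are the 6 strong MED1 peaks of HCT116 cells still listed after auxin, given to deplete the Mediator subunit MED14. They were chosen by their high fold enrichment and their presence in both auxin lists, as any peak that overlapped 1 of 6 windows of 20 kb in hg19. Each window held exactly 1 peak in each of 6 peak lists, so the members are 36 of 3464 peaks and 6 of the 1584 regions left when overlapping peaks of all lists were joined. The windows on chromosomes 2, 19 and 17 are named for ADI1, RFX2 and PHF12. The windows on chromosomes 12, 4 and 20 carry no gene name and are called by chromosome. No hg19 annotation was used here, so whether a peak lies in a promoter, exon, intron or intergenic stretch was not determined, and a gene name is only the name of its window.

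HCT116 is a human colorectal carcinoma line. In the CRISPR/Cas9 edited line OsTir1+/-;Med14-AID+/+, MED14 carries an auxin-inducible degron, and OsTir1 is the plant protein through which auxin marks it for degradation. MED14-AID cells were given 500 µM auxin for 3 h and then Nutlin-3a for 1 h, or the auxin alone, or water for the same time with or without the Nutlin-3a hour. Wild-type (WT) cells, with neither the degron nor auxin, were given Nutlin-3a or DMSO for 1 h, whereas the labels name no DMSO for MED14-AID cells. Each MED14-AID list came from 1 MED1 library and each WT list jointly from 2, and the 8 input libraries have no list of their own. The labels do not say whether the edited line is 1 clone.

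Mediator is a large complex that joins transcription factors on enhancers and promoters to RNA polymerase II. MED14 is its backbone, holding the head, middle and tail modules together, and MED1 is a subunit of the middle module that nuclear receptors and other activators contact. Loss of MED14 is therefore a way to ask where MED1 signal is still recovered on chromatin. How far MED14 was lost, or the complex taken apart, is not given by the lists and was not tested. ADI1 encodes acireductone dioxygenase, an enzyme of the methionine salvage pathway. RFX2 is a winged-helix transcription factor of the regulatory factor X family, known for its role in genes of cilia and of sperm development. PHF12 is a PHD finger protein that works with the SIN3 and histone deacetylase corepressor. In the GRCh38.p14 gene table, ADI1 stands between TRAPPC12 and RNASEH1, RFX2 between RANBP3 and ACSBG2, and PHF12 between DHRS13 and SEZ6 among protein-coding genes.

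RefSeq promoter windows, 250 bases before to 50 after the gene start, were found for 2 of the 3 named genes, ADI1 and PHF12. They are shown because a strong peak carries each name. Their coordinates are those of GRCh38.p14 and those of the peaks are hg19, so the overlap of peak and promoter was not measured. The ADI1 window is chr2:3519482-3519781 and the PHF12 window chr17:28951469-28951768, both on the minus strand, printed 5′ to 3′ along the gene. Capitals mark every match to a searched motif.
ADI1: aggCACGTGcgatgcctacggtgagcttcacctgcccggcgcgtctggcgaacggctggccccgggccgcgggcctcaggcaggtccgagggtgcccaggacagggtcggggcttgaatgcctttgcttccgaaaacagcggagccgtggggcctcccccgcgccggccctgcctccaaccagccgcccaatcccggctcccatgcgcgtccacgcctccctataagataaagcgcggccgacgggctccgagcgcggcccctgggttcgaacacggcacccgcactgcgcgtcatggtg
PHF12: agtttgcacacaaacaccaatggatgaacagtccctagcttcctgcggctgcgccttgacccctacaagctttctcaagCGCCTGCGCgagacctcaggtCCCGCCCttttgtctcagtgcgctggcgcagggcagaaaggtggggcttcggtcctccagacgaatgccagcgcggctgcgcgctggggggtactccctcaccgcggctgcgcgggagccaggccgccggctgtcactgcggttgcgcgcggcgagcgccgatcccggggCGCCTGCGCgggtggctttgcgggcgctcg

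Both promoters are rich in G, C and CpG. The GC content was 71.3% for ADI1 and 68.7% for PHF12, against a median of 58.7% over 35116 promoters. The ratio of observed to expected CpG was 0.947 for ADI1 and 0.961 for PHF12, against a median of 0.579. Of 8 motifs searched on both strands, 3 were found. The E-box CACGTG was present once in the ADI1 window and is held by 7.26% of all promoters. The NRF1 motif GCGCANGCG was present at 2 places in the PHF12 window and is held by 7.52% of all promoters. The SP/KLF motif GGGCGGG was present once in the PHF12 window and is held by 33.1%. The letters TGACGTCA (CRE, 1.85% of all promoters), TGANTCA (AP-1, 7.71%), CCGGAAGT (ETS, 4.14%), GTTGCCATG (from the RFX X-box, 0.846%) and GGNCATGTC (from the p53 site, 0.604%) were in neither window. None of the matches overlapped another.

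The lists held 66 peaks with auxin and Nutlin-3a, 53 with auxin, 522 with water and Nutlin-3a and 463 with water in MED14-AID cells, and 1254 with Nutlin-3a and 1106 with DMSO in WT cells. The strength of a peak is given as the authors' fold enrichment over background and as the −log10 of its q value. The lists hold no read counts, so the depth of each library is unknown. With 1 list per condition there was no spread between replicates, and every value below is a description with no test. Folds and −log10 q values of different lists stand side by side. No change is read from them, because each list has its own background and depth. Fold and presence under auxin chose the positions, so their height is not a finding.

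The ADI1 peak ranked 1 by fold in 5 lists and 2 with auxin and Nutlin-3a. Its fold was 36.5 with auxin and Nutlin-3a, 46.1 with auxin, 49.9 with water and Nutlin-3a and 40.5 with water in MED14-AID cells, and 47.5 with Nutlin-3a and 44.0 with DMSO in WT cells. The auxin values lie within or just below the range of the other lists. The −log10 q was 467 with auxin and Nutlin-3a, 467 with auxin, 552 with water and Nutlin-3a, 470.1 with water, 808 in WT cells with Nutlin-3a and 896 with DMSO. By q it ranked first in all 6 lists. Joined over the lists the peak covers chromosome 2, 3522238 to 3523396.

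RFX2 ranked 2 by fold in 4 lists, 3 with water and 1 with auxin and Nutlin-3a. Its fold was 40.4 with auxin and Nutlin-3a, 26.4 with auxin, 37.3 with water and Nutlin-3a and 37.9 with water, and 36.4 with Nutlin-3a and 33.0 with DMSO in WT cells. The lowest and the highest of these values are those of the 2 auxin lists. Its −log10 q was 346 with auxin and Nutlin-3a, 244 with auxin, 330.02 with water and Nutlin-3a and 312 with water, and 565 with Nutlin-3a and 623 with DMSO in WT cells. Relative to the ADI1 peak of the same list, its fold was 111% with auxin and Nutlin-3a and 57.4% with auxin, against 74.8% with water and Nutlin-3a and 93.6% with water. This was not particular to RFX2. All 5 members other than ADI1 had a higher percentage with auxin and Nutlin-3a than with water and Nutlin-3a. None had a higher one with auxin than with water. Of the other 25 regions found in every list, 14 had a higher percentage with auxin and Nutlin-3a than with water and Nutlin-3a. With auxin against water, 3 of the 25 had a higher one. Among the 13 of them no wider in median width than the widest member peak, these counts were 12 and 2. The ADI1 fold of the list enters every such percentage. The joined RFX2 peak covers chromosome 19, 6199154 to 6200117.

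PHF12 was lower than these and ranked between 3 and 7 by fold. Its fold was 14.0 with auxin and Nutlin-3a, 11.7 with auxin, 15.2 with water and Nutlin-3a and 17.9 with water, and 15.5 with Nutlin-3a and 22.8 with DMSO in WT cells. The 2 auxin lists gave the lowest values and WT DMSO the highest. Its −log10 q was 116 with auxin and Nutlin-3a, 81.6 with auxin, 88.8 with water and Nutlin-3a and 112 with water, and 219.5 with Nutlin-3a and 295 with DMSO in WT cells. The joined peak covers chromosome 17, 27278183 to 27279160.

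The chromosome 12 position varied most in fold between the lists of MED14-AID cells. Its fold was 33.7 with auxin and Nutlin-3a, 16.8 with auxin, 25.8 with water and Nutlin-3a and 38.1 with water, and 25.4 with Nutlin-3a and 22.8 with DMSO in WT cells. The list with auxin alone gave the lowest value, and the value with auxin and Nutlin-3a was above those of both WT lists. The −log10 q was 248 with auxin and Nutlin-3a, 146 with auxin, 189.5 with water and Nutlin-3a and 277 with water, and 368 with Nutlin-3a and 389 with DMSO in WT cells. It ranked 2 to 4 by fold, and covers chromosome 12, 13080119 to 13080988.

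The chromosome 4 position ranked 3 to 5 by fold. It had a fold of 32.6 with auxin and Nutlin-3a, 24.2 with auxin, 25.9 with water and Nutlin-3a and 25.3 with water, and 21.4 with Nutlin-3a and 21.3 with DMSO in WT cells. Here both auxin lists were above both WT lists, and the values of the water lists lay between those of the auxin lists. The −log10 q was 236 with auxin and Nutlin-3a, 171 with auxin, 191 with water and Nutlin-3a and 167 with water, and 278 with Nutlin-3a and 335 with DMSO in WT cells. The joined peak covers chromosome 4, 3747901 to 3748836.

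The chromosome 20 position was the lowest member in every list. Its fold was 13.4 with auxin and Nutlin-3a, 9.33 with auxin, 14.0 with water and Nutlin-3a and 17.5 with water, and 9.98 with Nutlin-3a and 10.3 with DMSO in WT cells. Its ranks in these lists, in the same order, were 8, 7, 7 and 6 in MED14-AID cells and 23 and 14 in the longer WT lists. The −log10 q was 64.1 with auxin and Nutlin-3a, 39.2 with auxin, 79.3 with water and Nutlin-3a and 91.6 with water, and 89.4 with Nutlin-3a and 90.2 with DMSO in WT cells. At the other 5 positions the −log10 q was higher in both WT lists than in any list of MED14-AID cells, and here it was not. Each WT list is joint for 2 libraries, each MED14-AID list is from 1, and depth is unknown. No difference between the cell lines is therefore read from −log10 q. The joined peak covers chromosome 20, 1820010 to 1821112.

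**Figure D1:**
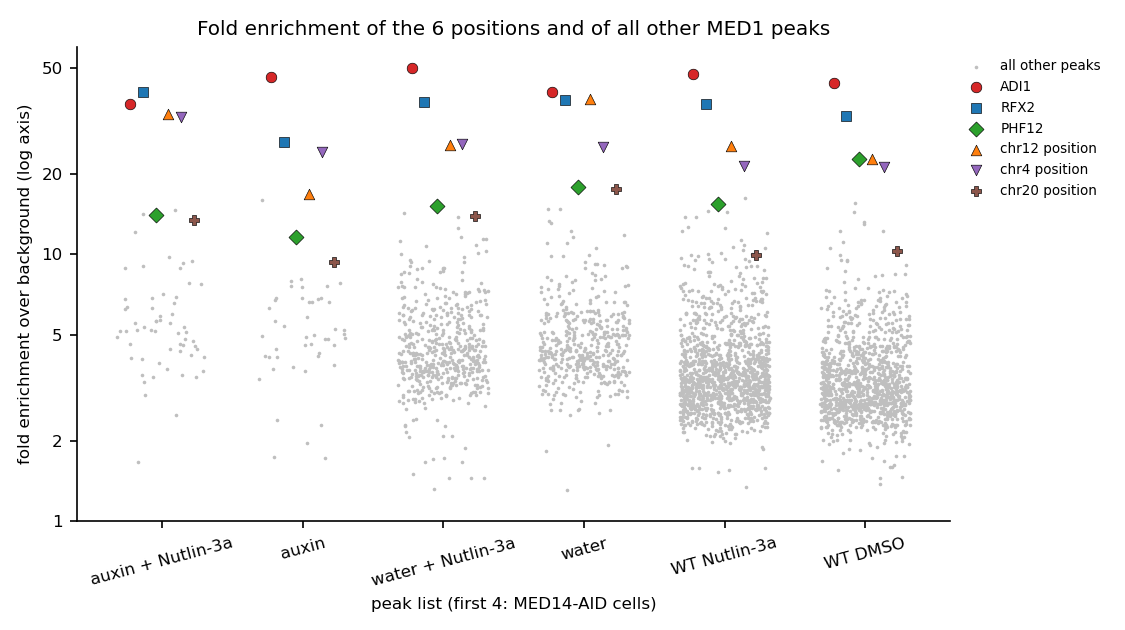
Fold enrichment over background (log axis) of the 6 positions (coloured symbols) and of all other peaks (grey points, spread sideways at random) in each peak list. The positions stand at 9.33 to 49.9, above nearly all grey points, whose medians over all peaks of a list lie between 3.19 and 5.34. The chromosome 20 symbol lies among the highest grey points in the WT lists.

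The 6 positions made up 6 of the 10 highest folds in each list of MED14-AID cells and 5 of 10 in each WT list, where the chromosome 20 position fell outside. All 6 positions were listed both with auxin and Nutlin-3a and with water and Nutlin-3a, while 9.004% of all peaks with water and Nutlin-3a overlapped a peak with auxin and Nutlin-3a. Without Nutlin-3a they were again all listed with auxin and with water, while 9.50% of all water peaks overlapped an auxin peak. Over all lists, 1.96% of regions (31) were in every list, and the 6 positions are among them. These shares stand beside the members without a reading, since the members were chosen for being kept. The median fold of the members was 33.1 with auxin and Nutlin-3a, 20.5 with auxin, 25.9 with water and Nutlin-3a, 31.6 with water, 23.4 in WT cells with Nutlin-3a and 22.8 with DMSO. Within the same lists it was 4.86, 3.64, 2.92, 4.28, 2.50 and 2.89 times the median fold of the other 25 regions found in every list, in that order.

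The edge of the choice differs between lists. Among regions of every list, the member lowest in the water list was the chromosome 20 position, with a fold of 17.5. Just below it was chromosome 6, 159149378 to 159153154, with a fold of 14.7 with water and 6.28 with auxin, at rank 7 with water and rank 22 with auxin. Chromosome 21, 30257252 to 30258154, followed with a fold of 14.7 with water as well, and it had 16.0 with auxin, above PHF12 and the chromosome 20 position in that list. The next were chromosome 1, 231473231 to 231474111 (7.78 with auxin, 13.05 with water), and chromosome 12, 52537084 to 52547323 (4.84 with auxin, 11.8 with water). Under auxin plus Nutlin-3a, chromosome 14, 100743361 to 100745123 (fold 14.6), and chromosome 8, 6505258 to 6508064 (fold 14.2), stood above PHF12 and the chromosome 20 position. With water and Nutlin-3a, the chromosome 6 region (14.3) stood above the chromosome 20 position (14.0). In WT cells with Nutlin-3a, 17 other peaks were above the chromosome 20 position, and with DMSO 8 were.

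In the 4 lists without auxin the 6 positions were narrower than most other strong peaks. The choice did not use width itself, but it required presence in both auxin lists. All peaks of those lists had median widths of 663 to 669 bp, against 760.5 to 833 bp in the lists without auxin. Whether the choice thereby favoured narrow peaks was not tested. The widths of the members lay between 689 and 1153 bp in all 36 peaks. The median width of the members was 897 bp with auxin and Nutlin-3a, 773 bp with auxin, 875 bp with water and Nutlin-3a, 904 bp with water, 940.0 bp in WT cells with Nutlin-3a and 930.5 bp with DMSO. These medians are above those of all peaks in the same lists, which were 663 to 833 bp. They are well below those of the other 20 highest peaks in the lists without auxin, which were 1991 bp with water and Nutlin-3a, 1580.5 bp with water, 2501 bp in WT cells with Nutlin-3a and 1449 bp with DMSO. Of those 20 peaks, 15, 13, 14 and 12 were wider than the widest member of the same list, in that order. In the auxin lists the members were not narrower than other strong peaks. The other 20 highest peaks there had a median of 749 bp with Nutlin-3a and 724 bp without, below those of the members, and 5 and 2 of them were wider than the widest member.

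ADI1 was the widest member in every list, at 1035 bp with auxin and Nutlin-3a, 1054 bp with auxin, 1060 bp with water and Nutlin-3a, 1078 bp with water, 1153 bp in WT cells with Nutlin-3a and 1077 bp with DMSO. By width its rank was 147 of 522 with water and Nutlin-3a and 133 of 463 with water, where it ranked first by fold. Fold and width went together over all peaks, with Spearman coefficients of 0.477 to 0.587 in the lists without auxin and 0.517 to 0.676 in the auxin lists, across peaks that share their library and are not independent. Peaks outside the 6 windows, of a width within the range of the members in the same list, had a median fold of 8.91 with auxin and Nutlin-3a (7 peaks), 6.63 with auxin (15 peaks), 4.39 with water and Nutlin-3a (133 peaks), 4.53 with water (116 peaks), 3.71 in WT cells with Nutlin-3a (297 peaks) and 3.43 with DMSO (204 peaks). The highest single fold among them was 16.03 with auxin, at the chromosome 21 position named above. In the plot of width against fold for the lists without auxin, the members stand towards the upper end of a narrow column of peaks. The choice by fold places them there. They lie away from the wide peaks that hold most of the other high folds. In each WT list, 5 other peaks of a width within the range of the members were above the chromosome 20 position.

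**Figure D2:**
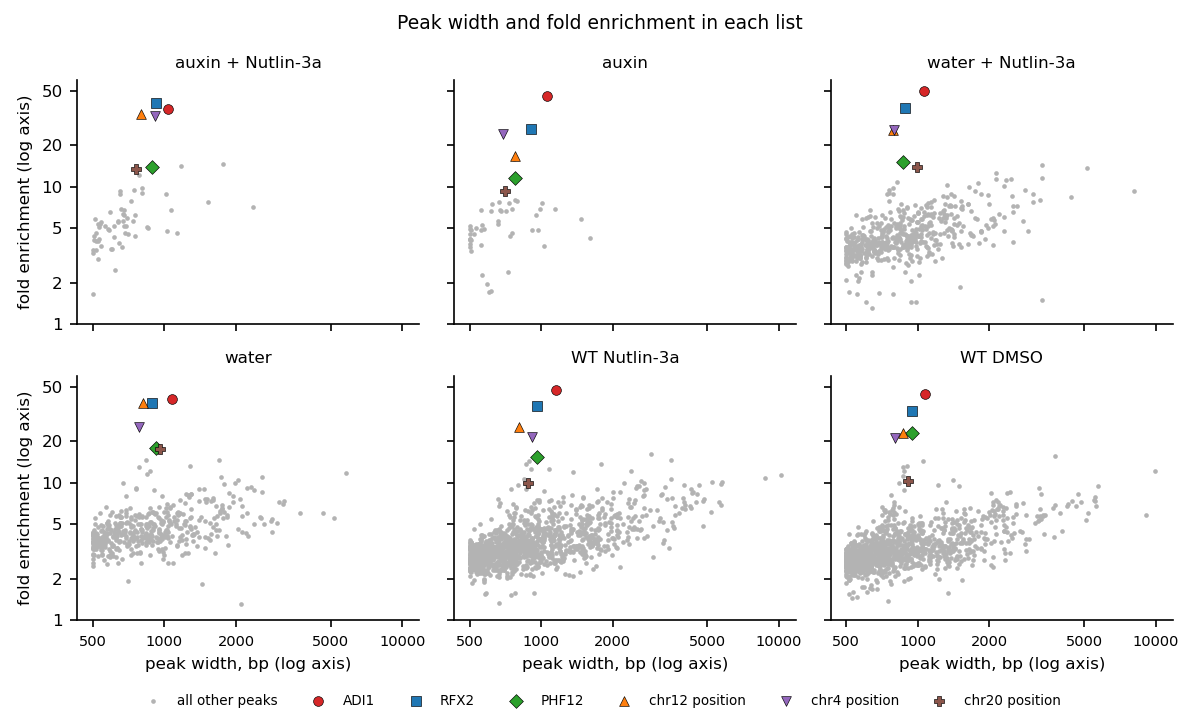
Peak width in bp against fold enrichment, both on log axes, in each of the 6 lists, with the 6 positions as coloured symbols and all other peaks in grey. The members lie between 689 and 1153 bp in width at folds of 9.33 to 49.9, whereas many other high peaks of the lists without auxin are wider than 1500 bp and few peaks of the auxin lists are.

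The summits of the members lay close together over the lists. The distance between the outermost of the 6 summits was 39 bp at ADI1 (3522811 to 3522850), 18 bp at RFX2 (6199625 to 6199643), 38 bp at PHF12 (27278671 to 27278709), 21 bp on chromosome 4 (3748360 to 3748381) and 16 bp on chromosome 20 (1820475 to 1820491). The chromosome 12 position was the exception, at 114 bp. Its summit was at 13080523 with auxin and Nutlin-3a, 13080637 with auxin, 13080633 with water and Nutlin-3a, 13080539 with water, 13080526 in WT cells with Nutlin-3a and 13080540 with DMSO. Those 6 values form a pair at 13080633 and 13080637 and a group of 4 between 13080523 and 13080540, and neither auxin nor Nutlin-3a separates the pair from the group. The median distance over the members was 29.5 bp (19.5 bp over the 4 lists without auxin), against 139 bp over the other 25 regions of every list, where it ranged from 25 to 3595 bp. Whether height or width goes with close summits was not tested. Among the 13 of those 25 regions whose median width over the lists was no larger than that of the widest member peak, the median distance was 71 bp, and over the 12 wider ones it was 149.5 bp. Those 13 ranged from 25 to 457 bp, and most of them lay within the range of the members, which reached 114 bp. One at 28 bp, chromosome 12, 120554264 to 120555153, had folds of only 4.29 to 9.30.

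**Figure D3:**
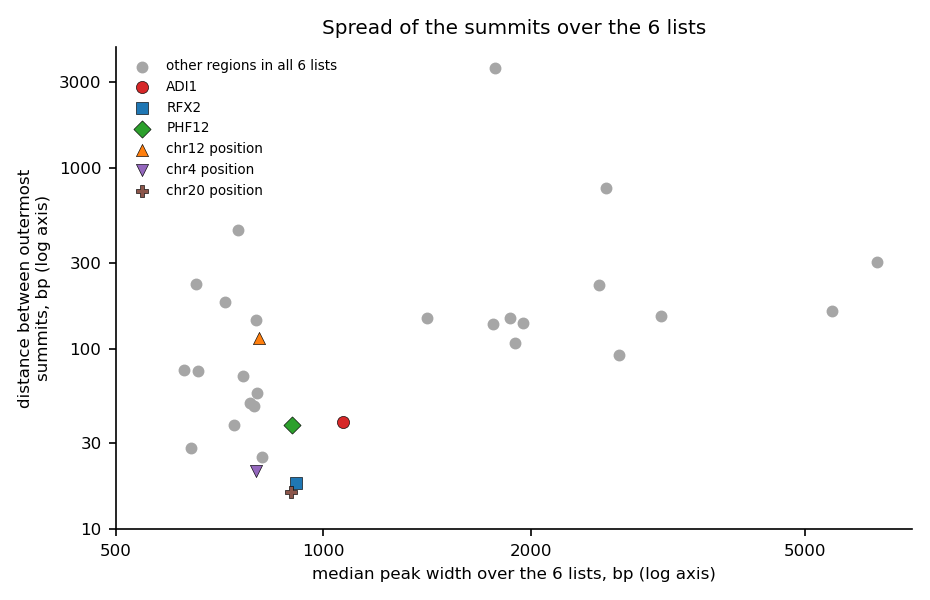
Distance in bp between the outermost of the 6 summits (log axis) against the median peak width in bp (log axis), for the 6 positions (coloured symbols) and the other 25 regions found in every list (grey). The members except the chromosome 12 position lie between 16 and 39 bp, and the grey points between 25 and 3595 bp.

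Peak starts and ends lay further apart over the lists than the summits at every position but chromosome 12. The boundaries of the other regions were not compared. The stretch common to all 6 lists was 1015 bp of 1159 bp covered by any of them at ADI1 (87.6%), 874 of 964 bp at RFX2 (90.7%), 773 of 978 bp at PHF12 (79.04%), 773 of 870 bp on chromosome 12 (88.9%), 688 of 936 bp on chromosome 4 (73.5%) and 706 of 1103 bp on chromosome 20 (64.0%). The lowest share, on chromosome 20, goes with starts 171 bp and ends 226 bp apart between lists. Summits lay near the middle of the peaks. Their place was 36.3 to 59.1% of the width from the left edge, with a median of 49.2% over the 36 peaks.

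**Figure D4:**
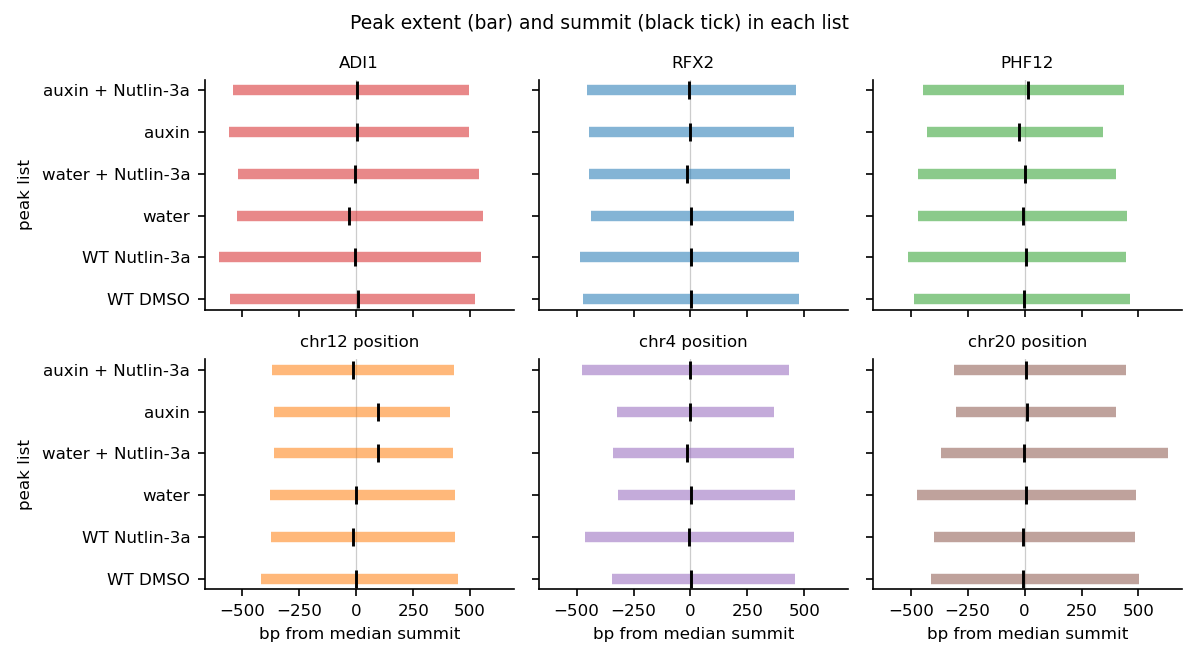
Extent (bar) and summit (black tick) of the peak at each of the 6 positions in each list, in bp from the median summit of that position. The bars of a position overlap in all 6 lists, and the ticks fall within 39 bp of each other except on chromosome 12, where the auxin list and the list with water and Nutlin-3a have their summit to the right of the others.

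The positions stood alone. None of the 36 member peaks had another peak of its list within 12500 bp, and the closest was 35.1 kb away, on chromosome 12 in WT cells with Nutlin-3a. Over all peaks, the share with no other peak within 12500 bp was 90.9% with auxin and Nutlin-3a, 84.9% with auxin, 42.7% with water and Nutlin-3a, 44.1% with water, 48.0% in WT cells with Nutlin-3a and 53.8% with DMSO. Among the other 20 highest peaks it was 20, 18, 7, 11, 8 and 10 of 20 in the same order. Standing alone was thus common to strong peaks under auxin and divided them without auxin. The chromosome 21 and chromosome 1 regions named above also stood alone in every list, with no peak closer than 2468.9 and 3549.8 kb. The chromosome 6 region and the chromosome 12 region from 52537084 each had another peak within 12500 bp in every list without auxin. The peak closest to ADI1 was 99.1 kb away in WT cells with Nutlin-3a, 99.0 kb with DMSO, and 5245 kb or more away in the 4 lists of MED14-AID cells.

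PHF12 had the same neighbour in 5 of the 6 lists, 107.9 to 108.2 kb to its left. This neighbour had a fold of 4.43 with auxin and Nutlin-3a (27169677 to 27170181), 5.26 with auxin, 5.51 with water, 7.02 in WT cells with Nutlin-3a and 5.93 with DMSO, and was missing from the list of water plus Nutlin-3a. It was thus also among the few peaks still listed with auxin. RFX2 had its closest peak 220.6 kb away in both WT lists. No list held a peak closer than 794.7 kb to the chromosome 4 position or 720.5 kb to the chromosome 20 position.

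The members differed in width and neighbours from the strongest water peaks that were in neither auxin list. These were chromosome 20, 30195833 to 30197116 (fold 13.3 with water), chromosome 8, 128258066 to 128260634 (11.03), chromosome 9, 21558810 to 21560540 (11.03), and chromosome 18, 3616811 to 3619112 (9.35). Their widths with water were 1284, 2569, 1731 and 2302 bp, against 780 to 1078 bp for the members in that list. Each had another water peak within 4.32 kb, the closest 0.056 kb away, whereas the closest to a member in that list was 54.8 kb away. All 4 are lower in fold than the lowest member with water, so height, width and neighbours differ together here and cannot be told apart. Among the next highest regions kept in every list, named above, those on chromosomes 6 and 12 were also wide with near neighbours. With water they were 1701 and 5816 bp wide, with another peak 0.216 and 0.057 kb away. Those on chromosomes 21 and 1 were 840 and 782 bp wide, with none closer than 5489 kb.

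The 6 positions were listed with and without Nutlin-3a, as was known when they were chosen. All were found with and without it in WT cells, with water and with auxin, while 65.0% of WT Nutlin-3a peaks overlapped a DMSO peak, 68.8% of peaks with water and Nutlin-3a overlapped a water peak, and 51.5% of peaks with auxin and Nutlin-3a overlapped an auxin peak. Likewise all 6 were found both in water-treated MED14-AID cells and in WT cells with DMSO, while 33.3% of WT DMSO peaks overlapped a water peak. The positions were proposed with their presence in the lists known, so nothing is read from these shares. The lists give neither input levels nor reads, and signal of the input libraries at the 6 positions was not tested.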

How the data were processed

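The submitters' processing notes name Bowtie 0.12.9, the hg19 build and MACS2 2.1.2, with no settings. Of 16 samples, 8 are MED1 libraries and 8 inputs. Per the labels, a WT list is joint for 2 replicates and a MED14-AID list is from 1 library. The authors' fold is a ratio of a peak over background. The deposited −log10 of q is the caller's, that of p is not used, and the deposited score is the −log10 q times 10, rounded down, in 3464 of 3464 peaks. The lists hold only peaks past the caller's limit (lowest −log10 q 1.58 to 2.76 per list), with no counts and hence no known depth.

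Peaks were assigned to the 6 windows, and joined over lists, by an overlap of at least 1 bp. Summits, widths, ranks within a list and gaps to the nearest other peak were computed with Python 3.11.15, numpy 2.4.6 and pandas 2.3.3, and plotted with matplotlib 3.10.9. Joining was tested on simulated data (200 of 200 shared regions found) and gave the 1584 regions of bedtools 2.31.1. Positions are hg19 and 1-based. The members and the comparison groups were chosen with earlier results of these data known, so no test was run. Comparison regions followed a rule: the 4 next highest water folds in every list and the 4 highest water peaks in neither auxin list. Other regions named were chosen after their values were seen. Promoter sequences are RefSeq's on GRCh38.p14.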

Additional observations from a re-analysis of the deposited data

How the results depend on the processing

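Of 58 alternative values, 52 stayed within 1.5 times the reported count or, for widths and distances, within 1 SD over the members. All 6 windows held a peak in every list when widened by 10 kb, by summit, and at a −log10 q of at least 10, and all 6 were shared at 50% reciprocal overlap. The widening could not have removed a peak, nor could the −log10 q limit, since the lowest member value was 39.2. The summit rule could not either, since every member peak lies well inside its window. Ranking autosomes and X only could not lower the count of members among the 10 highest peaks, since all members are on autosomes. Joining the 1 peak of each window, or a neighbour distance of 5 kb below the 12500 bp used, could not change a value either. These alternatives are among the 52 and are no sign of stability. Ranked by width in place of fold, 2 of the 10 highest peaks were members with auxin and Nutlin-3a, 1 with auxin and 0 in each of the 4 lists without auxin, since width is another property than height. The median distance between outermost summits was 29.5 bp, against 19.5 bp in the 4 lists without auxin and 43.5 bp by peak midpoints. With 50 kb as the neighbour distance, 5 members stood alone in each WT list, without the chromosome 12 position, and 6 in each list of MED14-AID cells. No paired analysis was possible because the 2 WT replicates of each condition share 1 list and every MED14-AID list is 1 library, and for the same reason no replicate could be left out. Depth is unknown, so a position absent from a list may lie under the caller's limit.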

Other observations

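The other 25 regions found in every list divide by width in the way the plot of width against fold shows. By their median width over the lists, 13 were no wider than the widest member, at 627 to 814 bp, and 12 were wider, at 1412.5 to 6368.5 bp. The narrow regions had the higher median fold within both auxin lists, 7.84 against 5.19 for the wider ones with auxin and Nutlin-3a, and 6.75 against 4.87 with auxin. Within 3 of the lists without auxin they had the lower one, 5.21 against 9.77 with water and Nutlin-3a, 6.21 against 7.57 with water, and 8.97 against 9.53 in WT cells with Nutlin-3a. In WT cells with DMSO they had the higher one again, 8.92 against 7.44. The division was made after the values were seen and has no test. With a limit of 1500 bp, also chosen then, 1 region changed sides, and the difference of narrow minus wider with water was −0.088 in place of −1.36. The order in each list was kept, and a limit of 1000 bp divides the regions as before.

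The narrow regions with the highest fold in the water list were chromosome 21, 30257252 to 30258154, with summits within 25 bp over the lists, and chromosome 1, 231473231 to 231474111, within 48 bp. The chromosome 21 region had folds of 12.1 with auxin and Nutlin-3a, 16.0 with auxin, 9.78 with water and Nutlin-3a, 14.7 with water, 13.8 in WT cells with Nutlin-3a and 13.2 with DMSO. Its widths were 768 to 903 bp in all lists. The wide chromosome 6 region, by contrast, was 1069 bp with auxin and Nutlin-3a and 955 bp with auxin, against 3326 bp with water and Nutlin-3a and 1701 bp with water.

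Narrow peaks were kept in the larger share in 3 of 4 counts, which have no test. The 50 highest peaks are part of the 100 highest, so the counts are not separate and no trend is read from them. Among the 50 highest water peaks outside the 6 windows, 7 of 12 narrow and 8 of 38 wider peaks were also listed with auxin, and in the pair of lists with Nutlin-3a 6 of 12 and 16 of 38 were. Among the 100 highest these were 11 of 45 and 11 of 55, and with Nutlin-3a 9 of 45 and 18 of 55. In the last of these counts the wider peaks had the larger share.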
